A study of Mus musculus with 23 samples.

Results

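The mineralocorticoid receptor, encoded by Nr3c2, is the nuclear receptor through which aldosterone acts on the end of the nephron. In the connecting tubule and collecting duct, aldosterone-bound receptor raises Sgk1 and the activity of the epithelial sodium channel, and sodium entry through that channel drives potassium secretion into urine. A high-potassium diet raises aldosterone, so a knockout of the receptor and a potassium load act on the same pathway from opposite sides. The comparison described here set knockout mice on a normal-potassium diet (KO-NK, 6 libraries) against control mice loaded with potassium (CT-HK, 6 libraries). These 12 libraries, assigned to their groups by the labels, are part of a series of 23. The other 11 are knockout mice on a low-potassium diet (KO-LK, 6 libraries) and control mice on a normal-potassium diet (CT-NK, 5 libraries).

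All mice of all groups carried the same alleles, Pax8-rtTA, TRE-LC-1 and MRflox/flox. Pax8-rtTA is a doxycycline-dependent activator made along the renal tubule, TRE-LC-1 a Cre recombinase under its control, and MRflox/flox the floxed receptor gene, so that Cre is not confined to the dissected segment. In KO-NK and KO-LK mice the drinking water held 5% sucrose and 2 mg/ml doxycycline over 2 weeks, followed by a washout of 2 weeks on a rescue diet. CT-HK and CT-NK mice drank 5% sucrose without doxycycline, and the labels do not say whether they ate the rescue diet. Each potassium diet was given for 4 days. KO-NK and CT-HK therefore differ in the induced deletion of the receptor gene, in the doxycycline itself and in diet. The shares of these in any difference cannot be told apart. Age and sex are not given, and replicates are numbered without a statement that each came from a separate animal, so p-values measure the spread between libraries, which may be technical.

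RNA came from dissected connecting tubules and cortical collecting ducts. Expression is given in CPM (counts scaled to a common library total, with TMM factors), and 3 values in a row are the lowest, the median and the highest of 6 libraries. A gene is called when its Benjamini-Hochberg adjusted p in edgeR's quasi-likelihood test over all genes is below 0.05, and fold changes are KO-NK over CT-HK. Libraries held 16158400 to 26140600 estimated counts in KO-NK and 20344600 to 34154500 in CT-HK. Mitochondrial genes took 9.40% to 13.4% of counts in KO-NK and 12.97% to 21.4% in CT-HK. In the authors' TPM, which scale for length, the principal cell water channel Aqp2 was at 693 to 2684 TPM in KO-NK and 1580 to 2433 TPM in CT-HK. The beta intercalated cell exchanger Slc26a4 was at 232 to 363 TPM in KO-NK and 199 to 416 TPM in CT-HK. S100g, of the connecting tubule, was at 2813 to 6565 TPM in KO-NK and 7812 to 27020 TPM in CT-HK. These markers were present in every library, but levels were not matched for all markers. Fxyd4, of principal cells, was at 510 to 1094 TPM in KO-NK and 181 to 348 TPM in CT-HK. Hsd11b2 and Scnn1g were also higher in KO-NK without overlap in TPM, while Scnn1b, Calb1, Trpv5 and Klk1 overlapped. TPM carry no TMM scaling, and CPM gave another picture. In CPM the ranges of Fxyd4, Hsd11b2 and Scnn1g overlapped, and those of Calb1 and Klk1 did not. Hsd11b2, for one, was at 814 to 1249.8 CPM in KO-NK and 634 to 1363 CPM in CT-HK. Proximal tubule markers, summed over 25 genes, ranged over 1363 to 7897 CPM in KO-NK and 398 to 43315 CPM in CT-HK, where the next library below replicate 6 was at 1190 CPM. KO-NK replicate 3 had the lowest depth and the highest sum on olfactory and vomeronasal receptor genes, 9123 CPM without TMM scaling, against at most 4644 CPM in CT-HK.

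Of 25829 tested genes, 1494 (5.78%) were called, 636 (2.46%) higher and 858 (3.32%) lower in KO-NK. At least 2-fold changes were found for 348 of the higher genes (1.35%) and 229 of the lower (0.887%). The CPM ranges of the 6 KO-NK and 6 CT-HK libraries did not overlap for 978 genes (3.79%), 529 of them higher (2.05%) and 449 lower (1.74%) in KO-NK. The split of calls moved with scaling and with single libraries. Higher genes made up 42.6% of calls here, 97.0% with limma on log2(TPM + 1) (5341 higher and 164 lower), 63.8% without KO-NK replicate 3 (1202 and 681), 58.5% with only these 12 libraries in the fit (1031 and 731) and 57.5% with a covariate for the receptor sum (1617 and 1195). The median log2 fold change was 0.21 over all genes, -0.09 over genes with a mean of at least 5 CPM and -0.26 over those with at least 100 CPM. Among changes of at least 2-fold in genes reaching 5 CPM, the 15 higher and 15 lower with the smallest p were followed. None lost its call in any alternative in which it was tested. They were picked by their p in these same libraries, so this does not bear on the other calls.

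**Figure D1:**
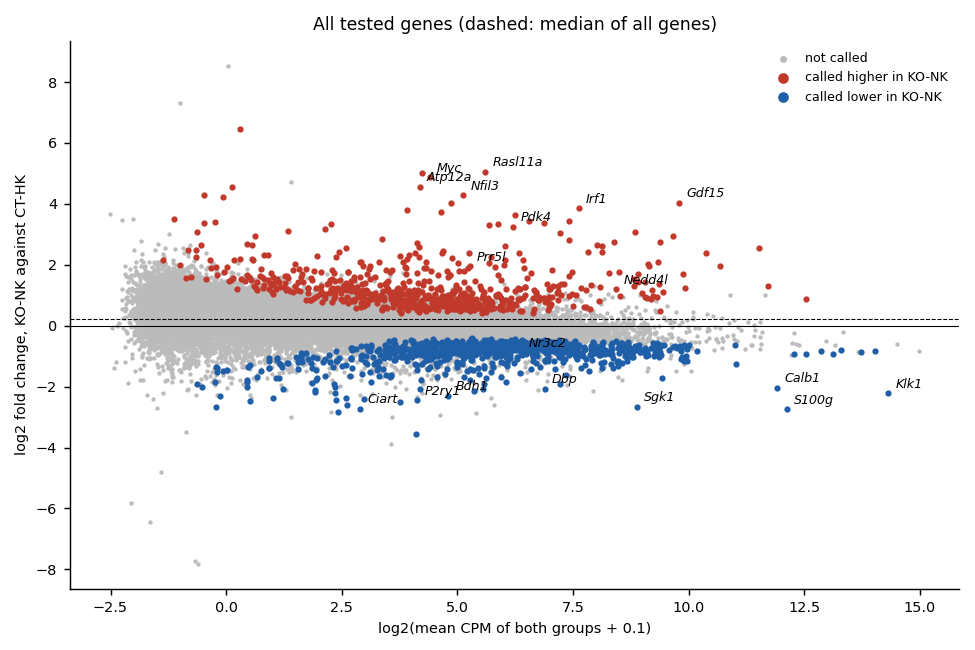
Each point is a tested gene, with its mean CPM over both groups on a log2 axis and its log2 fold change, KO-NK against CT-HK. Red points (636) were called higher and blue points (858) lower in KO-NK. Klk1, S100g and Calb1 lie at the lower right, abundant and low in KO-NK, and Rasl11a, Myc, Atp12a and Nfil3 at the top.

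Transcripts of the deleted gene were lower. Nr3c2 (on the plus strand of chromosome 8, 76899442 to 77245012 in GRCm38, ENSMUSG00000031618) was at 47.7, 58.4 and 71.5 CPM in KO-NK, against 70.2, 112 and 145 CPM in CT-HK. It fell by 1.84-fold (log2 fold change -0.88, SE 0.21, edgeR adjusted p = 0.0112), and the ranges just overlapped: the highest KO-NK library was above the lowest CT-HK library. The call was lost with a transcript length offset (-0.60), without the libraries rich in receptor counts (-0.80) and with TPM, where the means were 34.9 ± 5.16 in KO-NK and 38.2 ± 9.67 in CT-HK (SD, n = 6 each). Which exons are floxed is not given in the sources used here, and a count per gene does not separate a shortened transcript from a full one, so this value does not measure how much functional receptor was lost. The glucocorticoid receptor gene Nr3c1 was at 26.2 to 40.01 CPM in KO-NK and 19.7 to 47.7 CPM in CT-HK and was not called (0.22, adjusted p = 0.623), though limma on TPM called it higher (0.56). Hsd11b2, whose enzyme inactivates glucocorticoids in these cells and so leaves the receptor to aldosterone, had 814 to 1249.8 CPM in KO-NK and 634 to 1363 CPM in CT-HK and was not called either (0.17, adjusted p = 0.722), but was called higher with TPM (0.74).

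Genes that corticosteroid hormones induce moved both ways. Of 29 tested targets, 11 fell and 8 rose, against 3.32% and 2.46% of all genes called lower and higher. Every list count of the main edgeR fit that follows is to be read against these shares. List counts with TPM are to be read against 5341 genes higher and 164 lower of 25829 in limma. Those with DESeq2 stand against 874 higher and 1721 lower of 25813. With TPM 6 targets fell and 16 rose. Sgk1, the aldosterone-induced kinase that protects the sodium channel from removal, was at 43.9, 108 and 272 CPM in KO-NK and 648, 811 and 982 CPM in CT-HK. Every KO-NK library lay below every CT-HK library, and the fall was 6.32-fold (log2 fold change -2.66, SE 0.33, adjusted p = 2.15e-05). Tsc22d3, which encodes the hormone-induced zipper protein GILZ, held 19.1, 24.1 and 33.1 CPM in KO-NK against 35.8, 54.6 and 80.1 CPM in CT-HK (-1.11, SE 0.20, adjusted p = 0.001504), again with no overlap. Klf15, a glucocorticoid-induced transcription factor of amino acid metabolism, had 17.8, 30.2 and 34.6 CPM in KO-NK and 73.7, 112 and 128 CPM in CT-HK (-1.86, SE 0.20, adjusted p = 4.30e-06). Gchfr, the feedback regulator of tetrahydrobiopterin synthesis, fell to 7.09, 11.9 and 22.3 CPM in KO-NK, against 29.4, 37.9 and 58.3 CPM in CT-HK (-1.6, SE 0.23, adjusted p = 8.87e-05). Named after their values were seen, Fkbp5 (-1.92), Zbtb16 (-1.91), Mt2 (-1.34), Mt1 (-1.17), Ndrg2 (-0.93) and Usp2 (-0.87) also fell on the log2 scale, and the sodium channel gene Scnn1a, described with its channel, completes the 11.

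The 8 targets that rose were Pdk4, Edn1, Nfkbia (2.64), Cdkn1a (1.79), Dusp1 (1.64), Ddit4 (1.59), Fxyd4 (1.17) and Rasd1 (1.08). Targets of both directions stand on other lists too, such as Nfkbia, Cdkn1a, Gchfr and Usp2. Which signal moved them was not tested. Pdk4, the kinase that shuts pyruvate dehydrogenase, was at 72.2, 124 and 232 CPM in KO-NK and 9.25, 13.4 and 20.4 CPM in CT-HK, a 9.54-fold rise (log2 fold change 3.25, SE 0.33, adjusted p = 1.62e-06). The lowest KO-NK library was above the highest CT-HK library. Edn1, encoding the collecting duct peptide endothelin-1, which inhibits sodium reabsorption, rose 4.77-fold, with 4.13 to 11.1 CPM in KO-NK and 1.12 to 2.35 CPM in CT-HK (adjusted p = 7.72e-05). Per1, a clock gene that aldosterone induces, had 27.4 to 43.9 CPM in KO-NK and 13.8 to 27.9 CPM in CT-HK and was not called (0.67, adjusted p = 0.158), though it was with TPM (0.80) and with only these 12 libraries in the fit (0.75).

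**Figure D2:**
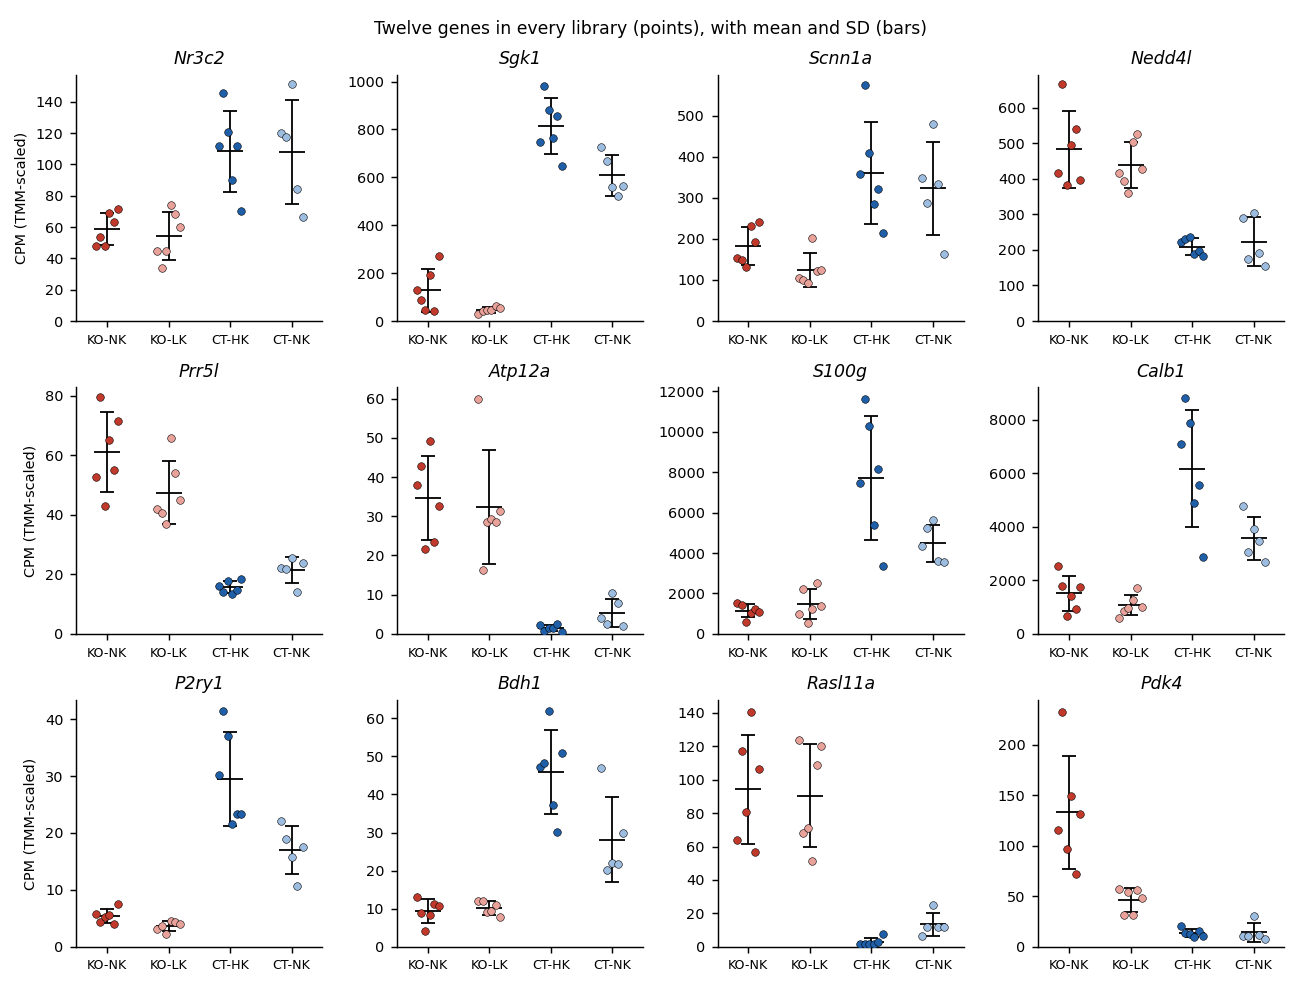
CPM (TMM-scaled, linear axis) of 12 genes in every library of the 4 groups, with bars at the mean and SD. Sgk1, S100g, Calb1, P2ry1 and Bdh1 are lower and Prr5l, Atp12a, Rasl11a and Pdk4 higher in all 6 KO-NK libraries than in any CT-HK library.

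Of the 3 sodium channel subunit genes edgeR called the alpha subunit. Scnn1a fell to 131, 173 and 240.2 CPM in KO-NK, against 213, 339 and 575 CPM in CT-HK (-0.98, SE 0.25, adjusted p = 0.0188). The ranges overlapped, and the call was lost with TPM (-0.33), with the length offset (-0.84), without CT-HK replicate 2 (-0.79) and without the 8 libraries above 2500 CPM on receptor genes (-0.88). Scnn1b was at 617 to 1425 CPM in KO-NK and 791 to 1482 CPM in CT-HK (adjusted p = 0.871), with a log2 fold change of -0.07 that changed sign with TPM (0.46). Scnn1g, the gamma subunit, was at 1012 to 2056 CPM in KO-NK and 778 to 1458 CPM in CT-HK (0.37, adjusted p = 0.376). It was called higher with TPM (0.90) and without KO-NK replicate 3 (0.55).

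Regulators of the channel were called in both directions: of 23 tested genes of the list, which includes the subunits, 2 rose and 5 fell. Nedd4l, the ubiquitin ligase that removes the channel from the membrane and is held back by Sgk1, was at 383, 456 and 668 CPM in KO-NK, against 182, 209.7 and 236 CPM in CT-HK. That was a 2.31-fold rise with no overlap (log2 fold change 1.21, SE 0.18, adjusted p = 0.000121). Prr5l, whose protein binds the mTORC2 kinase complex that activates Sgk1, rose 3.87-fold, to 43.1, 60.1 and 79.5 CPM in KO-NK, against 13.5, 15.5 and 18.5 CPM in CT-HK (1.95, SE 0.17, adjusted p = 4.83e-07). Fxyd4, a sodium pump regulator of the collecting duct, rose (1.17, adjusted p = 0.0154), with 158 to 407 CPM in KO-NK and 101 to 213 CPM in CT-HK, where replicate 2 was the highest.

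For potassium itself, the recovering pump changed and the secretory channels did not pass the test. Atp12a, the colonic-type proton-potassium pump that takes potassium back from the lumen, was at 21.8, 35.3 and 49.1 CPM in KO-NK and 0.435, 1.46 and 2.52 CPM in CT-HK. The rise was 23.7-fold (log2 fold change 4.57, SE 0.45, adjusted p = 1.39e-06), with the groups far apart. Its exons overlap those of Gm10873, and counts on such exons cannot be assigned to one gene by strand in these libraries. Kcnj1, the main secretory potassium channel ROMK, was at 597 to 1064 CPM in KO-NK and 541 to 1197 CPM in CT-HK (log2 fold change 0.02, SE 0.22, adjusted p = 0.963). Its sign changed with DESeq2's size factors (-0.00), and TPM called it higher (0.57). Kcnma1, the flow-activated BK channel, was low and varied widely between libraries in both groups, at 0.697 to 6.39 CPM in KO-NK and 0.248 to 5.25 CPM in CT-HK (0.54, SE 0.72, adjusted p = 0.721). Of 21 genes of potassium channels and pumps, 1 rose and 2 fell. The falls were Kcne1 (-0.75, adjusted p = 0.0211) and the basolateral channel gene Kcnj10 (-0.61, adjusted p = 0.0434), both with overlapping ranges. Neither was called with TPM (-0.35 and -0.06), nor without CT-HK replicate 1, 2 or 3. Wnk1, a chloride-sensing kinase upstream of sodium and potassium transport, was the 1 gene of 16 in its pathway that was called, 6.25% against 5.78% of all genes (-1.23, SE 0.28, adjusted p = 0.00817). Slc12a3, which marks the distal convoluted tubule just upstream, ranged over 4.51 to 981 CPM in KO-NK and 6.33 to 334 CPM in CT-HK and was not called (1.31, SE 1.26, adjusted p = 0.639).

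The abundant connecting tubule transcripts S100g, Calb1 and Klk1 fell, as did most tissue kallikreins. They were the 3 called of 17 calcium and magnesium transport genes, none of which rose. The apical calcium channel gene Trpv5, for one, was at 172 to 368 CPM in KO-NK and 143 to 398 CPM in CT-HK and was not called (-0.17, adjusted p = 0.774). S100g, encoding calbindin-D9k, was at 612, 1159.7 and 1532 CPM in KO-NK, against 3381, 7791 and 11636 CPM in CT-HK, 6.68-fold lower (log2 fold change -2.74, SE 0.34, adjusted p = 2.10e-05). Calb1, encoding calbindin-D28k, the buffer that carries calcium across connecting tubule cells, was at 672, 1579.6 and 2525 CPM in KO-NK and 2866, 6319.8 and 8807 CPM in CT-HK (-2.03, SE 0.31, adjusted p = 0.000243). Neither gene's ranges overlapped. The connecting tubule protease Klk1 had 3424, 7034 and 12321 CPM in KO-NK and 12529, 37854 and 47191 CPM in CT-HK (-2.22, SE 0.40, adjusted p = 0.00134). Of 14 kallikrein genes 10 fell and none rose, with a median log2 fold change of -2.30, and TPM also called 10. The Klk1b genes, such as Klk1b5 (8.71 to 20.7 CPM in KO-NK, 35.5 to 85.7 CPM in CT-HK, -2.15, adjusted p = 3.67e-05), are near-identical neighbours of Klk1 that can take each other's reads, so their separate values are uncertain. In dissected tissue, fewer cells of a type and less RNA of a gene per cell cannot be told apart, which bears on these genes since they mark the connecting tubule. Summed principal cell markers were 7687 to 18704 CPM in KO-NK and 11094 to 17389 CPM in CT-HK. Of the 19 markers in that sum 4 were called higher and 1 lower, 26.3% against 5.78% of all genes.

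Receptors for local signals were called in both directions. P2ry1, a purinergic receptor for ADP, had the smallest p of all lower genes that met the fold and level limits. It was at 3.92, 5.39 and 7.53 CPM in KO-NK and 21.6, 26.8 and 41.4 CPM in CT-HK (5.47-fold lower, -2.45, SE 0.22, adjusted p = 7.75e-07). P2ry14, the receptor for UDP-glucose on intercalated cells, rose (1.17, SE 0.21, adjusted p = 0.00136). The other 15 of 17 purinergic receptor genes were not called. Ptgfr, the prostaglandin F receptor, fell to 29.5, 58.3 and 108 CPM in KO-NK, against 116, 160.0 and 187 CPM in CT-HK (-1.35, SE 0.22, adjusted p = 0.000418). Of 15 prostaglandin genes 2 rose and 2 fell. The receptor gene Ptger4 rose (1.10, SE 0.25, adjusted p = 0.00873), with 13.2 to 32.6 CPM in KO-NK and 5.40 to 10.6 CPM in CT-HK, and the synthase gene Ptges2 fell (-0.65, adjusted p = 0.0119), both without overlap. The call of Ptgs2, the inducible synthase gene, rests on few counts, at 0 to 7.96 CPM in KO-NK and 0 to 0.304 CPM in CT-HK. Of 16 water channel and vasopressin genes 4 rose and none fell, namely Avpr1a, Pde4d (0.83), Gata2 and Elf3. Avpr1a, the vasopressin V1a receptor of intercalated cells, rose (0.92, SE 0.20, adjusted p = 0.00559), with overlapping ranges of 43.4 to 106 CPM in KO-NK and 30.2 to 47.9 CPM in CT-HK. Aqp2 had 719, 2280.4 and 3494 CPM in KO-NK and 2980.0, 3807 and 4559 CPM in CT-HK and was not called (-0.77, SE 0.32, adjusted p = 0.1896).

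Tight junction and epithelial genes mostly rose where they were called. Cldn4 and Cldn8, claudins that form the chloride path of the collecting duct, were 2 of 16 chloride channel and claudin genes called, both higher. Cldn4 was at 433, 534 and 713 CPM in KO-NK and 97.2, 129 and 349.5 CPM in CT-HK (1.75, SE 0.31, adjusted p = 0.001002). Cldn8 was at 607, 976 and 1279.6 CPM in KO-NK and 301, 454 and 632 CPM in CT-HK (1.12, SE 0.22, adjusted p = 0.00298). The keratin partners Krt8 and Krt18 rose 2.69-fold and 2.49-fold (adjusted p = 0.00104 and 0.001504), while Krt7 fell (-1.09, adjusted p = 0.00393), a call lost with TPM (-0.49). Stc1, encoding the secreted hormone stanniocalcin-1, was at 188, 280.5 and 488 CPM in KO-NK and 28.5, 38.6 and 69.6 CPM in CT-HK (7.05-fold higher, 2.82, SE 0.33, adjusted p = 9.09e-06). Among 14 alpha and 10 beta intercalated cell markers 2 were called. Dmrt2, an alpha marker, rose (1.23, adjusted p = 0.00379), and Spink8, which is on both lists, fell (-1.39, adjusted p = 0.000177).

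Markers of other cell types held few calls. None of 25 proximal tubule, 14 endothelial or 18 leukocyte markers was called by edgeR, and none had an unadjusted p below 0.05. DESeq2 called none of these either, and limma on TPM called 1 leukocyte marker. Of 9 podocyte and parietal markers Cd2ap rose (0.47, adjusted p = 0.0461), and of 14 thick ascending limb and distal convoluted tubule markers Ptgs2 was called higher. Dcn alone was called among 15 fibroblast and smooth muscle markers (2.86 to 9.34 CPM in KO-NK, 10.3 to 20.6 CPM in CT-HK, -1.44, adjusted p = 0.00427), a call lost with TPM. The fitted fold change was negative for 24 of the 25 proximal tubule genes, with a median of -1.34 on the log2 scale, or -1.55 from that of all genes. It lay 0.52 above that of all genes with TPM, and 1.62 above without CT-HK replicate 6, where 1 of them was called higher. The median library pointed the other way, with summed markers at 1904 CPM in KO-NK and 1028 CPM in CT-HK, and CT-HK replicate 6 was at 43315 CPM.

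A large shared change was a rise of immediate early genes, the first genes transcribed after growth factor, stress or calcium signals. Of 31 tested, 27 rose and none fell, with a median log2 fold change of 2.38, against 2.46% of all genes called higher. In 26 of the 31 every KO-NK library was above every CT-HK library, against 2.05% of all genes. The count was 30 with TPM, where limma called 5341 genes higher in all. It was 27 with covariates for other tubule segments and 25 without KO-NK replicate 3 and CT-HK replicate 6 together. When 1 library was left out it was 23 to 27. Myc was at 21.2, 29.5 and 93.01 CPM in KO-NK and 0.609, 1.29 and 2.503 CPM in CT-HK, 29.5-fold higher (4.88, SE 0.49, adjusted p = 1.60e-06). KO-NK replicate 2 was the highest. Egr2, a zinc finger factor of the growth factor response, was at 35.3, 49.2 and 91.2 CPM in KO-NK and 1.26, 3.22 and 6.52 CPM in CT-HK (4.03, SE 0.50, adjusted p = 1.68e-05). Klf6 (2.41), Ier5 (2.11) and Btg2 (1.97) rose with no overlap. The 4 members that were not called are Ccn2, Dusp2, Ier3 and Klf2, named here after their values were seen.

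NF-kappaB, the inflammatory transcription factor, switches on its own inhibitors, among them Nfkbia and Tnfaip3, which both rose. Of 22 genes of its list, 11 rose (against 2.46% of all genes) and none fell (8 to 15 over all alternatives). Nfkbia, which encodes the inhibitor that holds NF-kappaB in the cytoplasm, was at 349.8, 464 and 523 CPM in KO-NK and 57.00, 71.95 and 90.1 CPM in CT-HK (6.24-fold higher, 2.64, SE 0.40, adjusted p = 0.000182). Nfkbiz was at 127, 148 and 247 CPM in KO-NK and 9.18, 15.7 and 25.3 CPM in CT-HK (3.43, SE 0.40, adjusted p = 1.07e-05), and the deubiquitinase gene Tnfaip3, which shuts the pathway off, at 63.2, 87.96 and 147 CPM in KO-NK and 6.21, 9.12 and 13.1 CPM in CT-HK (3.31, SE 0.47, adjusted p = 8.24e-05). Because Nfkbia is known as a direct NF-kappaB target, its promoter (RefSeq, GRCm38.p6, chr12:55492598-55492897, minus strand, 250 bases before to 50 after the start) is shown. Capitals mark the match to the kappaB motif (GGG, any 2 bases, then TTTCC), searched on both strands and found here on the reverse one, with its first base 29 bases before the start.
Nfkbia: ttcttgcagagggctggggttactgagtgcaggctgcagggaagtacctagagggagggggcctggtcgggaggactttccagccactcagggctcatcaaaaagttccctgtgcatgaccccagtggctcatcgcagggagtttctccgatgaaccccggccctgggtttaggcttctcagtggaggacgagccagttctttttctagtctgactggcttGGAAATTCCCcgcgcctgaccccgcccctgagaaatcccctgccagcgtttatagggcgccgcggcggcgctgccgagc
Of 27025 promoters of that length, 1.65% hold the motif. Such a match is a run of letters and does not measure binding.

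Growth arrest and growth factor feedback genes rose beside them. Of 19 p53 targets and cell cycle inhibitors 9 rose, against 2.46% of all genes, and none fell. Cdkn1a, the cell cycle inhibitor p21, was at 48.1, 55.1 and 59.9 CPM in KO-NK and 11.4, 15.8 and 21.2 CPM in CT-HK (1.79, SE 0.17, adjusted p = 1.39e-06), with ranges well apart. Gdf15, a secreted stress hormone, was at 1278, 1545 and 2648 CPM in KO-NK and 24.7, 83.9 and 266 CPM in CT-HK, 16.5-fold higher (4.04, SE 0.57, adjusted p = 8.24e-05). Gadd45b rose 10.8-fold (adjusted p = 0.000189). Of 23 epidermal growth factor receptor ligands and MAP kinase feedback genes 10 rose and none fell, among them the feedback inhibitors Spry1 (2.38) and Dusp5 (2.71) and the ligand genes Hbegf (1.99) and Tgfa (1.4). Of 24 TGF-beta and YAP targets 7 rose and none fell, with Ccn1 at 361, 411 and 1260.3 CPM in KO-NK and 19.97, 76.7 and 202 CPM in CT-HK (2.73, SE 0.43, adjusted p = 0.000283). Of 23 genes of the integrated stress and unfolded protein response 6 rose and 3 fell, and the median was 0.22, against 0.21 for all genes. Ddit3 (2.15), Atf4 (1.26) and Ppp1r15a (2.41) were among those that rose, and the endoplasmic reticulum gene Herpud1 (-1.09) among those that fell. Of 29 cell cycle genes 2 fell (6.9%, against 3.32% of all genes), Cdk1 (-1.45, adjusted p = 0.0449) and Ccnd1 (-0.68, adjusted p = 0.0392), and both calls were lost with TPM and without KO-NK replicate 1, 3, 5 or 6 or CT-HK replicate 2 or 5. Several lists share genes, such as Btg2 and Dusp5, so their counts are not separate observations.

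**Figure D3:**
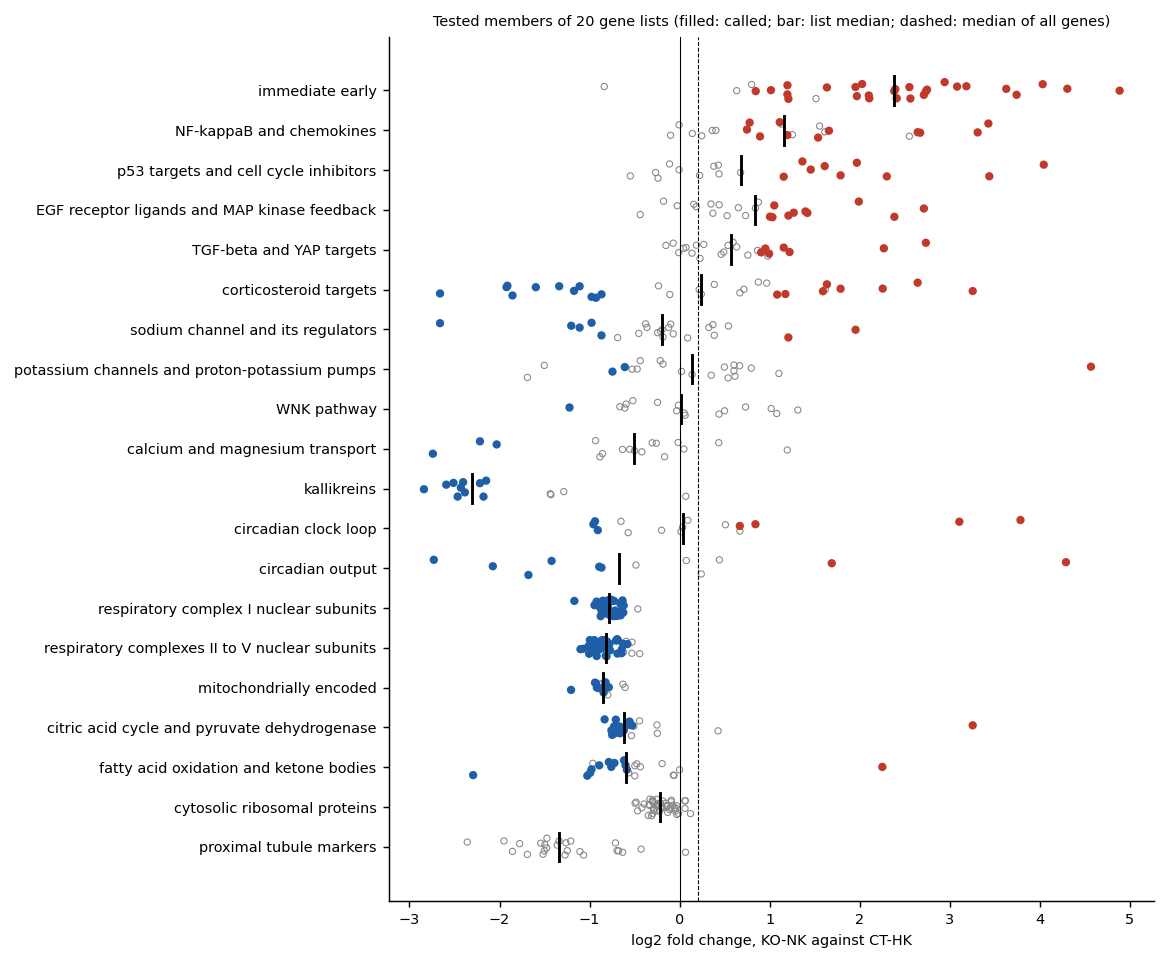
Log2 fold change, KO-NK against CT-HK, of every tested member of 20 gene lists, with filled points for called genes, a bar at each list's median and a dashed line at the median of all genes, 0.21. Immediate early genes centre on 2.38 and kallikreins on -2.30, and the respiratory chain lists lie in a narrow band near -0.8.

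Circadian clock genes were displaced in both directions. In the clock, ARNTL pairs with CLOCK or NPAS2 and switches on genes through E-boxes, among them Per, Cry, Dbp and Ciart genes, whose products feed back. Of 15 genes of the loop 4 rose and 3 fell, and of 12 output genes 2 rose and 6 fell. With TPM the counts were 8 and 0 in the loop and 3 and 3 in the output, and without CT-HK replicate 2 or 3 a single loop gene fell. Arntl was at 22.5, 26.6 and 34.8 CPM in KO-NK and 0.951, 2.19 and 2.82 CPM in CT-HK, 13.8-fold higher (3.78, SE 0.44, adjusted p = 8.51e-06). Its partner gene Npas2 rose to 2.39, 4.801 and 5.505 CPM in KO-NK, against 0, 0.4696 and 1.22 CPM in CT-HK (3.11, SE 0.64, adjusted p = 0.00385). Nfil3, a repressor that acts at D-boxes, was at 31.03, 66.1 and 93.4 CPM in KO-NK and 1.26, 2.73 and 8.296 CPM in CT-HK, 19.5-fold higher (4.29, SE 0.45, adjusted p = 3.00e-06).

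Other clock genes were mostly low where called. Exceptions, named after their values were seen, were Clock, Nr1d1 and Bhlhe40, which all rose. Clock was at 31.4 to 43.0 CPM in KO-NK and 20.9 to 27.6 CPM in CT-HK (0.67, adjusted p = 0.0136), with no overlap. Nr1d1, which encodes the Arntl repressor REV-ERB-alpha, was at 106 to 195 CPM in KO-NK and 55.3 to 126 CPM in CT-HK (0.84, adjusted p = 0.0223). Bhlhe40, a repressor at E-boxes, was at 564 to 848 CPM in KO-NK and 131 to 408 CPM in CT-HK (1.69, adjusted p = 0.00147). Ciart, a repressor of the loop, was at 0.677, 1.74 and 3.32 CPM in KO-NK and 6.98, 13.8 and 15.7 CPM in CT-HK, 6.63-fold lower (-2.73, SE 0.39, adjusted p = 8.59e-05). Dbp and Tef encode activators that compete with NFIL3 at D-boxes. Dbp fell to 32.7, 43.6 and 62.03 CPM in KO-NK, against 139, 175 and 262 CPM in CT-HK (-2.07, SE 0.28, adjusted p = 5.56e-05), and Tef to 56.7, 72.5 and 93.8 CPM in KO-NK, against 134, 218 and 241 CPM in CT-HK (-1.42, SE 0.22, adjusted p = 0.000301). Per3 was at 23.9, 27.98 and 35.3 CPM in KO-NK and 41.3, 51.1 and 72.1 CPM in CT-HK (-0.94, SE 0.23, adjusted p = 0.0144), a call lost with TPM (-0.41). In Arntl, Npas2, Nfil3, Ciart, Dbp, Tef and Per3 no KO-NK library fell inside the CT-HK range. The time of day at which tissue was taken is not given in the labels.

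The promoters of Ciart and Per3 are shown because each holds several copies of a clock motif. Capitals mark E-boxes (CACGTG) in Ciart (chr3:95882179-95882478, minus strand) and D-boxes (TTANGTAA) in Per3 (chr4:151044616-151044915, minus strand), both from RefSeq, GRCm38.p6.
Ciart: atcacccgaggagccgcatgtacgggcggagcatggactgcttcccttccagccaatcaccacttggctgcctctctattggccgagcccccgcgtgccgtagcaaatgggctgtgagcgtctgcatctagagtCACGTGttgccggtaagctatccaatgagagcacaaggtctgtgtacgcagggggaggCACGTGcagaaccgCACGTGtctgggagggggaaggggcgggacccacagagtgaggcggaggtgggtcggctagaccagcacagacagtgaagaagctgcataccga
Per3: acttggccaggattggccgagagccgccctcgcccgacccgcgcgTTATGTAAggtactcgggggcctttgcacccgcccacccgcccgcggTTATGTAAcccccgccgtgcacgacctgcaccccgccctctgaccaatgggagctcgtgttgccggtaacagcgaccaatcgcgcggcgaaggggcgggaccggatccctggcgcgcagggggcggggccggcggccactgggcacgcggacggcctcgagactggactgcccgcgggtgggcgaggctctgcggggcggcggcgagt
The 3 E-boxes of Ciart begin 116, 58 and 44 bases before the start, and the 2 D-boxes of Per3 205 and 158 bases before it. An E-box is held by 7.20% and a D-box by 2.36% of the 27025 promoters, counting both strands. No E-box lies in this window of Dbp or Per3 and 1 lies in that of Tef and of Per1, and no D-box in that of Dbp.

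**Figure D4:**
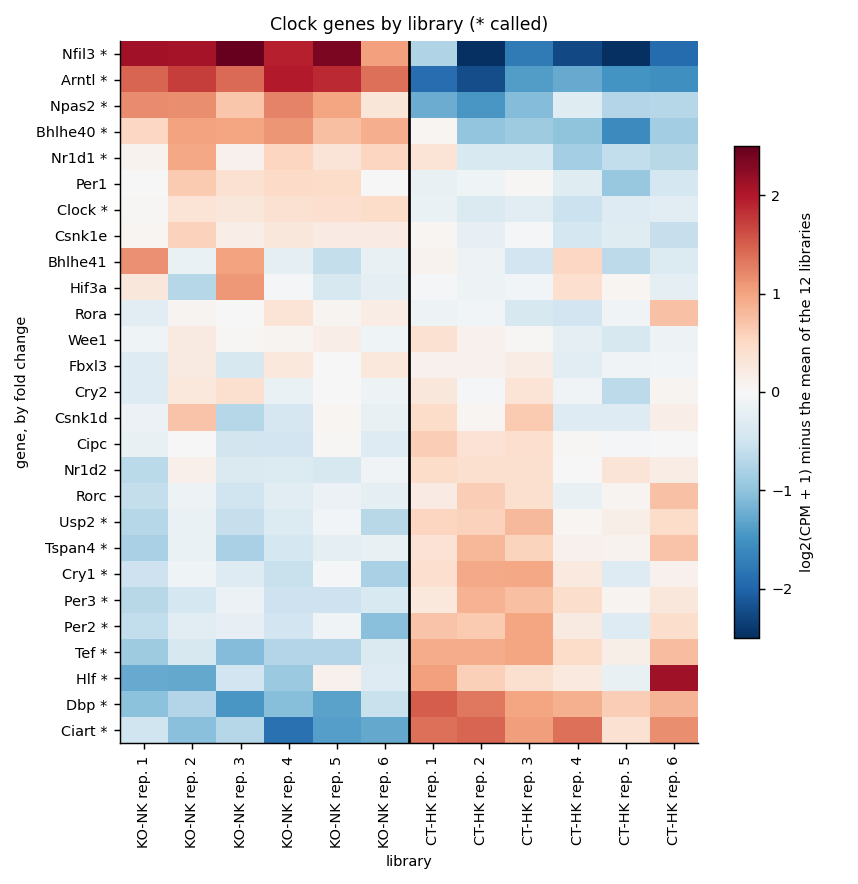
Log2(CPM + 1) of clock loop and output genes in each KO-NK (left) and CT-HK (right) library, minus the mean of the 12 libraries, ordered by fold change, with asterisks on called genes. Nfil3 and Arntl are high in all 6 KO-NK libraries, and Ciart, Dbp and Tef are high in all 6 CT-HK libraries.

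Nuclear genes of the mitochondrial respiratory chain were lower in KO-NK almost without exception, and by a similar small amount. All 36 tested complex I subunit genes had negative fold changes, and 35 fell, with a median log2 fold change of -0.79. Of 39 genes of complexes II to V, 34 fell, with a median of -0.82. For genes with a mean of at least 100 CPM, 5.18% were called higher and 16.2% lower and the median was -0.26, which is the nearer yardstick for these abundant genes. Ndufa1, a complex I subunit, was at 124, 225 and 292 CPM in KO-NK and 364, 499 and 581 CPM in CT-HK (-1.17, SE 0.17, adjusted p = 0.000132). Uqcrq of complex III was at 121, 222 and 271 CPM in KO-NK and 339.9, 438 and 570.5 CPM in CT-HK (-1.08, SE 0.17, adjusted p = 0.000418), and Cox6c of complex IV at 277, 435 and 571 CPM in KO-NK and 634, 865 and 1118 CPM in CT-HK (-1.02, SE 0.18, adjusted p = 0.00108). Cytosolic ribosomal protein genes were not called by edgeR in either direction (0 of 46, 7 at an unadjusted p below 0.05, median -0.22). DESeq2 called 4 of them lower, out of 1721 genes lower in all, and limma on TPM 25 higher, out of 5341.

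The number of respiratory genes called depends on the scaling. With limma on log2(TPM + 1), which called 164 genes lower in all, 5 complex I genes and 10 genes of complexes II to V fell, and the list medians lay -0.53 and -0.59 from that of all genes on the log2 scale. With covariates for other tubule segments in edgeR the counts were 35 and 34, and without KO-NK replicate 3 and CT-HK replicate 6 together 31 and 31. In KO-NK summed proximal tubule markers had a median of 1904 and a mean of 3114 CPM. In CT-HK the median was 1028 and the mean 7969 CPM. The segment covariates included these markers, and their part in the result was not tested in any other way. Of 15 mitochondrially encoded genes 9 fell (median -0.86), but 1 fell with TPM and 15 with DESeq2. Without any one of KO-NK replicates 1 to 5 or CT-HK replicates 1, 2, 3, 5 or 6 the count was 1 to 5, so it is not stable. mt-Nd5 was at 2944, 4121 and 5384 CPM in KO-NK and 5576, 7393 and 10397 CPM in CT-HK (-0.92, SE 0.25, adjusted p = 0.0277).

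Genes of fuel oxidation fell too, and Pdk4 rose. Of 25 genes of the citric acid cycle and pyruvate dehydrogenase 17 fell and 1, Pdk4, rose. With TPM none fell, and without KO-NK replicate 1 or CT-HK replicate 1, 2 or 3 the count was 10, 8, 7 or 9. Ketone body genes were among the falls. Bdh1, which interconverts the ketone bodies, was at 4.08, 9.78 and 12.96 CPM in KO-NK and 30.2, 47.7 and 61.8 CPM in CT-HK, 4.901-fold lower (-2.29, SE 0.25, adjusted p = 4.30e-06). Oxct1, the enzyme that commits ketone bodies to oxidation, was at 337, 573 and 820.1 CPM in KO-NK and 957, 1293 and 1408 CPM in CT-HK (-1.03, SE 0.20, adjusted p = 0.00282), and Acat1, the next enzyme, at 209, 379 and 456 CPM in KO-NK and 525, 769 and 858 CPM in CT-HK (-0.99, SE 0.19, adjusted p = 0.00241). Over the whole list of fatty acid oxidation and ketone bodies 11 of 22 fell and 1 rose, with 3 and 4 under TPM and 7 falling without CT-HK replicate 1, 2, 3 or 6. Amino acid enzymes Bcat2, for branched chains (109.9 to 211 CPM in KO-NK, 325 to 581 CPM in CT-HK, -1.38, adjusted p = 3.84e-05), and Kyat3, for kynurenine (20.3 to 29.02 CPM in KO-NK, 46.9 to 60.97 CPM in CT-HK, -1.13, adjusted p = 2.76e-05), fell with no overlap. Of 20 glycolysis genes 1 rose and 5 fell, with a median of -0.48. Pfkfb3, which makes the activator of phosphofructokinase, was the rise (1.36, SE 0.26, adjusted p = 0.00212), and Aldoc was among the falls (-1.25, SE 0.23, adjusted p = 0.00124).

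The gene of smallest p in either direction was Rasl11a, a small GTPase of the Ras family. It was at 56.7, 93.5 and 141 CPM in KO-NK and 1.46, 1.72 and 7.44 CPM in CT-HK, 33.3-fold higher (5.06, SE 0.43, adjusted p = 4.83e-07). Its relative Rasl11b rose as well (1.88, SE 0.21, adjusted p = 4.53e-06). Irf1, an interferon-induced transcription factor, was at 226, 346 and 543 CPM in KO-NK and 17.01, 26.6 and 30.7 CPM in CT-HK, 14.5-fold higher (3.86, SE 0.42, adjusted p = 4.53e-06), whereas its list of 24 interferon genes had 2 higher and 1 lower. The TGF-beta early genes Klf10 (2.4) and Klf11 (2.23), the corepressor gene Tgif1 (2.27), the RNA decay factor gene Zfp36l1 (2.6), the tumour suppressor gene Rassf1 (1.93) and the ubiquitin ligase gene Neurl3 (1.47) complete the higher genes, all with ranges apart. Among the lower, Fkbp11, a folding enzyme of the endoplasmic reticulum, was at 6.45, 8.43 and 9.402 CPM in KO-NK and 19.7, 28.98 and 34.7 CPM in CT-HK (-1.8, SE 0.18, adjusted p = 1.39e-06). Abr, a regulator of small GTPases (-1.62), the mitochondrial carrier gene Slc25a35 (-1.54) and the histone gene Hist2h2aa1 (-1.38), which has a near-identical copy and so an uncertain value, also fell with ranges apart. Exons of Rassf1 and Slc25a35 overlap those of Gm9917 and Rangrf, and exons of Dbp, Ddit3 and Hspd1 those of Sphk2, Mars and Hspe1.

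The other groups of the series place these values. Between the controls, CT-HK against CT-NK, edgeR called no gene (927 at an unadjusted p below 0.05), limma on TPM none and DESeq2 20. KO-NK against CT-NK, which shares its knockout libraries with the comparison above, had 439 calls (1.7%), of which 242 were higher (0.937% of genes) and 197 lower (0.763%). Of the 636 higher and 858 lower genes in KO-NK against CT-HK, 427 and 680 were called in neither of these 2 comparisons. The absence of calls between the controls therefore does not mean that diet had no part, and its share was not tested. Calb1 averaged 3579.7 ± 808 CPM in CT-NK (SD, n = 5), and Atp12a 5.42 ± 3.58 CPM.

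KO-LK against CT-NK shares no library with KO-NK against CT-HK, though both were fitted together, and it called 528 genes (2.04%). In both comparisons the knockout mice had doxycycline and the diet lower in potassium. Shared calls therefore cannot tell receptor deletion, doxycycline and diet apart. Of 636 genes higher in KO-NK, 139 (21.9%) were also higher in KO-LK, which is 58.9% of the 236 higher there (0.914% of genes). Of 858 lower genes 233 (27.2%) were also lower, 79.8% of the 292 lower there (1.13% of genes), and no gene was called in opposite directions. The sign was shared by 95.9% of the higher genes, where 46.2% of all genes were positive, and by 97.6% of the lower genes, where 53.8% were negative. With each comparison fitted on its own libraries, over the 19975 genes tested in both fits, 183 of 1030 higher (17.8%) and 265 of 731 lower genes (36.3%) were shared, 58.3% of 314 and 55.8% of 475. Sgk1 averaged 46.1 ± 11.02 CPM in KO-LK and 608 ± 86.01 CPM in CT-NK (SD, n = 6 and 5; -3.72, adjusted p = 4.20e-06), and Atp12a 32.3 ± 14.5 CPM in KO-LK and 5.42 ± 3.58 CPM in CT-NK (2.58, adjusted p = 0.00165). Gchfr (-2.46, adjusted p = 4.20e-06), P2ry1 (-2.23, adjusted p = 7.81e-06), Bdh1 (-1.47, adjusted p = 0.00191) and Dbp (-1.79, adjusted p = 0.00107) also fell in KO-LK. Arntl (1.39, adjusted p = 0.0929), Nfkbia (0.82, adjusted p = 0.394), Egr2 (1.6, adjusted p = 0.0878) and Pfkfb3 (0.13, adjusted p = 0.999) were not called there. Whether the sizes differ between the comparisons was not tested.

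**Figure D5:**
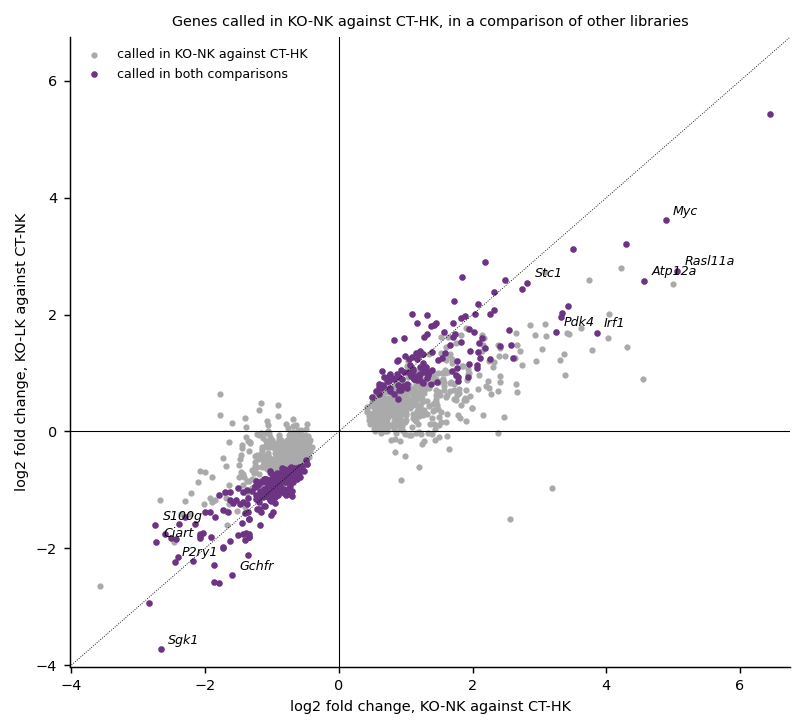
Genes called in KO-NK against CT-HK, with their log2 fold change there (horizontal) and in KO-LK against CT-NK (vertical), which uses none of the same libraries. Purple points are called in both, 139 higher and 233 lower, and the dotted line marks equal changes. Rasl11a, Atp12a and Pdk4 lie below it at the upper right, and Sgk1 is the lowest point.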

How the data were processed

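RNA of dissected mouse connecting tubules and cortical collecting ducts was made into SMART-Seq HT and Nextera XT libraries, per the labels' protocols, with kits that do not mark strand. The submitters' processing notes name Salmon, with the version given as 0.14.10, and the build GRCm38.p6. The authors deposited expected counts per gene (54393 genes, 35.9% of values not whole) and TPM, a length-scaled share of transcripts. Both tables hold the same 23 libraries, and 0 value columns belong to other samples.

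After rounding, these counts went into edgeR 4.0.16 in R 4.3.3 (TMM scaling, its filterByExpr filter, a model with 1 mean for each of the 4 groups and all 23 libraries, 19 residual degrees of freedom, quasi-likelihood F tests, Benjamini-Hochberg adjustment, threshold 0.05). This left 25829 genes (common biological coefficient of variation, 0.563). SE is the absolute log2 fold change divided by the square root of F. Symbols and coordinates come from GENCODE on GRCm38, and 104 symbols have more than 1 gene ID. Promoters come from RefSeq and matched 104 of 134 named genes.

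The comparison and the 43 gene lists were chosen with earlier results of these data known. Named genes are Nr3c2, the 15 called genes with the smallest p in each direction (log2 fold change of 1 or more in size, 5 CPM or more on average where higher, no predicted genes), up to 4 called genes of smallest p per list, and a fixed set of transport genes, 1 of which is not reported here. Alternatives were DESeq2 1.42.0, its size factors, no filter, a filter of 5 CPM in 5 libraries, limma 3.58.1 on log2(TPM + 1) and log2(TPM + 0.1), only the 12 libraries compared, a replicate block, a length offset, covariates for other tubule segments and for receptor counts, leaving out the 8 libraries above 2500 CPM on receptor genes, and leaving out each library. Leaving out KO-NK replicate 3 and CT-HK replicate 6 together, and fitting each comparison on its own libraries for the shared calls, were added after seeing the data. The scripts were tested on simulated data. No pair of the 12 libraries was a duplicate (highest correlation of log2 CPM 0.978).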

Additional observations from a re-analysis of the deposited data

Results flagged for a closer look

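Each of 134 named genes was examined in KO-NK and in CT-HK for a single library far from the other 5. Of 268 such examinations 19 found such a library. The limit used gives about 1 in 20 for independent values of a normal distribution. CPM of related genes need not follow that, so the rate is not a fair yardstick here. KO-NK replicate 2 was the highest of its group for Myc (93.0 CPM), Ell (32.6 CPM), Ptger4 (32.6 CPM), Gdf15 (2648 CPM), Btg2 (3421 CPM), Ccn1 (1260.3 CPM) and Smad7 (29.3 CPM). CT-HK replicate 1 was the highest of its group for Nfil3 (8.30 CPM), Cldn4 (349.5 CPM), Ppp1r15a (129 CPM), Gdf15 (266 CPM) and Gadd45b (59.8 CPM). Several of these are immediate early or stress genes, so they are not independent observations. KO-NK replicate 5 was the highest for Ptgs2, the inducible prostaglandin synthase gene, at 7.96 CPM. KO-NK replicate 3 was the lowest for Bcat2, at 109.9 CPM. CT-HK replicate 6 was the highest for Rasl11a (7.44 CPM) and Nr3c1 (47.7 CPM), CT-HK replicate 4 the highest for Kcnma1 (5.25 CPM) and the lowest for Avpr1a (30.2 CPM), and CT-HK replicate 2 the highest for Fxyd4 (213 CPM). What sets these libraries apart was not tested.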

How the results depend on the processing

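In place of the 1494 calls reported (636 higher, 858 lower), there were 2595 with DESeq2 (1721 lower), 799 with no filter (315 and 484), 3539 with a filter of 5 CPM in 5 libraries (1594 and 1945), 5505 with limma on log2(TPM + 1) (5341 and 164), 5643 with log2(TPM + 0.1) (5479 and 164) and 2812 with a receptor covariate (1617 higher). With only the 12 libraries compared 1031 were higher, and without KO-NK replicate 3 and CT-HK replicate 6 together 547 were lower. Leaving out 1 library gave 1058 to 1929 calls, 501 to 1202 higher (the highest without KO-NK replicate 3) and 543 to 1240 lower. Lower calls fell by over 1.5 times without CT-HK replicate 1 (557), 2 (543) or 3 (564). Nr3c2 was no longer called with TPM (-0.10 for both pseudocounts), a length offset (-0.60) or without receptor-rich libraries (-0.80). Signs that changed were all in uncalled genes: Kcnj1 with DESeq2 (-0.003), its size factors (-0.003), no filter (-0.05) and single libraries left out (-0.086 to 0.211); Scnn1b with TPM (0.463 and 0.464), 2 groups (0.02), segment covariates (0.04), the receptor covariate (0.113), receptor-rich libraries left out (0.026) and single libraries left out (-0.159 to 0.146); Slc12a3 with segment covariates (-0.304); and Kcnma1 with the receptor covariate (-0.203). The cause was not tested. Over named genes and alternatives other than leaving out 1 library, 1566 values kept direction and call, 133 lost the call, 14 gained one and 11 changed sign; on leaving out 1 library the counts were 1489, 100, 1 and 6. Replicate numbers did not pair the samples (correlations of deviations -0.46 to 0.59, own number best for 1 of 6), and with the replicate block 1167 genes were called (508 and 659). Depth limits genes near 1 CPM, such as Kcnma1 and Ptgs2.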

Other observations

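Further gene groups held few calls. Elf3, an epithelial transcription factor, was at 393, 481 and 593 CPM in KO-NK and 46.7, 81.5 and 105 CPM in CT-HK (6.203-fold higher, 2.63, SE 0.34, edgeR adjusted p = 2.74e-05). Gata2, a transcription factor of principal cells, rose (0.65, adjusted p = 0.0403), with overlapping ranges of 168 to 301 CPM in KO-NK and 95.2 to 189 CPM in CT-HK. Lmna, the nuclear lamina gene, was at 158, 212 and 259 CPM in KO-NK and 34.2, 59.5 and 75.96 CPM in CT-HK (1.83, SE 0.23, adjusted p = 2.31e-05), and Itgb6, the integrin subunit gene that activates TGF-beta, at 63.3, 95.6 and 117 CPM in KO-NK and 26.9, 37.7 and 55.9 CPM in CT-HK (1.22, SE 0.20, adjusted p = 0.000512). In both genes every KO-NK library was above every CT-HK library.

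Of 22 genes of the proton pump and carbonic anhydrases none rose and 2 fell (9.09%). Called lower were 3.32% of all genes and 16.2% of those with a mean of at least 100 CPM. The falls were the pump subunit genes Atp6v1e1 (-0.65, adjusted p = 0.0289) and Atp6v1f (-0.66, adjusted p = 0.0339). Both had overlapping ranges and lost their calls with TPM (-0.11 and -0.10). Of 22 cholesterol synthesis genes 1 rose, the sterol carrier gene Stard4 (67.8 to 122 CPM in KO-NK, 38.7 to 61.8 CPM in CT-HK, 0.90, adjusted p = 0.00101), and 1 fell, Pmvk (-0.77, adjusted p = 0.0149). Of 16 heat shock genes Dnajb1 rose (0.93, adjusted p = 0.0353), while the mitochondrial chaperone gene Hspd1 fell (-1.02, adjusted p = 0.0127) together with its partner Hspe1 (-0.78, adjusted p = 0.01299), which overlaps it.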
